A study of Mus musculus with 6 samples.

Results

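Purinergic signalling was described through 10 genes: the P2Y receptors P2ry1, P2ry6 and P2ry14, the P2X channels P2rx4 and P2rx7, the adenosine receptors Adora1 and Adora2b, the ectonucleotidases Entpd1 and Entpd2, and adenosine kinase, Adk. They were read from all probe sets that the array's annotation assigns to exactly 1 of these symbols, which gave 20 probe sets of 8 genes, out of 34945 probe sets of 18193 genes with a single symbol. No probe set carried the symbol Adora1 or Adora2b alone, and these receptors were not analysed here. A probe set is a group of short probes on the array that together report 1 transcript.

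The data came from 6 whole-genome expression arrays of green fluorescent cells that were sorted from the somatosensory grey matter of FVB/N mice aged 2 to 3 months, with about 15 animals pooled for each array and their sex not determined. The 3 reactive arrays held cells of TgN(hGFAP-EGFP) GFEA mice, whose reporter is under a human GFAP promoter. These mice had been given a cortical stab injury of 0.7 mm depth and 1 to 1.2 mm length, and their cells were collected 5 days later. The 3 non-reactive arrays held cells of Tg(Aldh1l1-eGFP)OFC789Gsat mice without injury, whose reporter is under Aldh1l1 regulatory sequence. Both groups were sorted from a tissue punch 0.35 cm wide against a gate set on non-fluorescent C57BL/6 cells, and the protocol also describes BrdU labelling without saying which animals received it. Injury and reporter line went together, so their parts in any difference cannot be told apart. In such bulk samples fewer cells of a type and less RNA per cell cannot be told apart either.

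Cells release ATP and other nucleotides into the space around them, above all when they are damaged. P2X channels open when ATP binds, and P2Y receptors signal through G proteins after binding ATP, ADP, UDP or UDP-sugars. Ectonucleotidases on the cell surface split these nucleotides step by step, ecto-5′-nucleotidase yields adenosine, adenosine receptors read it, and adenosine kinase inside astrocytes removes it by turning it into AMP. Astrocytes and microglia both carry parts of this system, and microglia are known for their ADP receptors.

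Values are log2 expression on the RMA scale, in which a difference of 1 is a 2-fold change. Entpd2, an ectonucleotidase that converts ATP mainly to ADP, fell 5.33-fold in the reactive cells and was the only member past the test. The brightest Adk probe set was lower in every reactive array than in every non-reactive array, without passing. The brightest probe sets of P2ry1, P2ry6, P2ry14, P2rx4, P2rx7 and Entpd1 had higher reactive means, by 0.067 to 1.12, without passing. Probe sets of a gene did not all go 1 way: 2 of 4 for P2rx4, 1 of 3 for P2rx7 and 2 of 3 for Entpd1 were lower, and 1 of 6 for Adk was higher. Over the 20 probe sets, 1 was called by limma (adjusted p under 0.05 over all 45037 probe sets), which is 5% of the members against 0.85% of all probe sets. That member fell, as 0.584% of all probe sets did, and 0 members rose, against 0.266% of all. The groups did not overlap in 8 member probe sets, 4 higher and 4 lower, or 40% against 20.9% of all probe sets. An unadjusted limma p under 0.05 was reached by 6 of 20, or 30%, against 13.2% of all probe sets. The median difference of the 20 was -0.086, beside 0.10 for all probe sets, and 9 differences lay above 0 and 11 below. Several probe sets are assigned to the same gene, so these counts are not counts of independent genes.

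**Figure D1:**
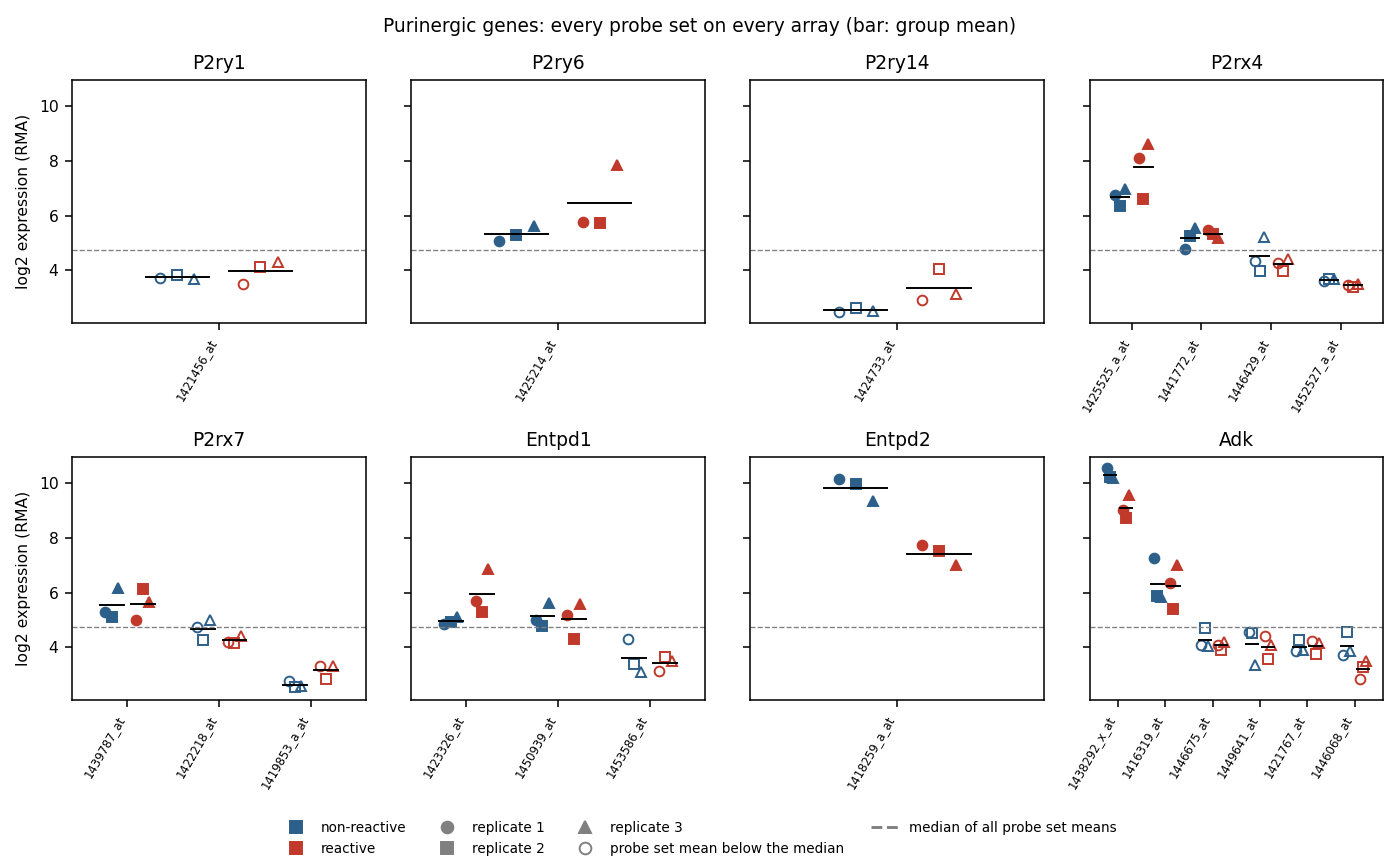
Log2 expression (RMA, vertical axis) of the 20 probe sets of 8 purinergic genes on each of 6 arrays, with non-reactive arrays in blue, reactive arrays in red, the replicate as the symbol and group means as bars. Entpd2 lies between 7.01 and 7.73 on reactive and between 9.37 and 10.16 on non-reactive arrays, and open symbols mark the 11 probe sets with a mean under 4.74, the midpoint (median) over all probe sets.

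The start-site sequences of Entpd2 and Adk, the members whose brightest probe sets were lower on all reactive arrays, are shown because RefSeq gives Entpd2 a single start and Adk 2 starts. Adk is known to have a long nuclear and a short cytoplasmic form made from separate starts. Each line is a window of 250 bases before to 50 bases after a RefSeq transcript start (GRCm38.p6), 5′ to 3′ on the gene's strand, and capitals mark the searched motifs. The Entpd2 window is chr2:25395624-25395923 (plus strand), and the Adk windows are chr14:21052324-21052623 and chr14:21075902-21076201 (plus strand).
Entpd2: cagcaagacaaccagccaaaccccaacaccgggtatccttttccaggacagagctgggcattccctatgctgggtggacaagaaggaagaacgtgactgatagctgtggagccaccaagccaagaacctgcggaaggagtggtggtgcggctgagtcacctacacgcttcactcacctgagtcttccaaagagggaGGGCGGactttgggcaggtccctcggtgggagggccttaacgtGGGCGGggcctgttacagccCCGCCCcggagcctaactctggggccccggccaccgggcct
Adk, start 1: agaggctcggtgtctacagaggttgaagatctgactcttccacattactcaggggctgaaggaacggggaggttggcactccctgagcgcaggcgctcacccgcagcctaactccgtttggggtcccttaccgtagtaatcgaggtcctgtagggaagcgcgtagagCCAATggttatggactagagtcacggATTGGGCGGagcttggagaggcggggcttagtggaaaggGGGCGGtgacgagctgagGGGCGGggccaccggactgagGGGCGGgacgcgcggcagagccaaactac
Adk, start 2: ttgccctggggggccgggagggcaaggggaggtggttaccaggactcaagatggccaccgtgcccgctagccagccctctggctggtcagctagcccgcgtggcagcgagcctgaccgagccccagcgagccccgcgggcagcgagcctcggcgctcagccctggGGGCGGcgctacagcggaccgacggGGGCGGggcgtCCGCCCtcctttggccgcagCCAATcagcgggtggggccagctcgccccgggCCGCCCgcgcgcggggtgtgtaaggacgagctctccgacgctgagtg
The motifs searched on both strands were the GC box GGGCGG, the CCAAT box, the TATA box TATAAA and the STAT site TTCNNNGAA. They were present in 35.7%, 37.4%, 13.6% and 8.3% of all 32851 RefSeq windows of this length. The Entpd2 window held 3 GC boxes and a GC content of 62%. The Adk windows held 4 GC boxes each, with 2 CCAAT boxes in the first and 1 in the second, and a GC content of 61.7% and 75%. One CCAAT match of the first Adk window, starting at -57 from the transcript start, overlaps the GC box that starts at -54. The median GC content of all windows was 52.7%. Neither gene's windows held these TATA or STAT letters, and a match is a description of the letters and not of a bound site.

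The enzymes are described first. Entpd2 measured 10.16, 9.98 and 9.37 in non-reactive replicates 1, 2 and 3. It measured 7.73, 7.53 and 7.01 in reactive replicates 1, 2 and 3. All reactive arrays were low, all non-reactive arrays were high, and a gap of 1.65 separated the groups. The group means were 7.42 ± 0.37 and 9.83 ± 0.41 (SD, n = 3 each). The log2 difference, reactive minus non-reactive, was -2.41 with a standard error of 0.30 and a 95% interval of -3.14 to -1.69, and the limma adjusted p was 0.0343 (Benjamini-Hochberg). The direction was the same without each array in turn, with differences between -2.64 and -2.21, but the call was lost in all 6 of these fits, in which 1 group had 2 arrays. The limma adjusted p was 0.0657, 0.0682 and 0.0602 without reactive replicate 1, 2 or 3 and 0.108, 0.130 and 0.0775 without non-reactive replicate 1, 2 or 3. Entpd2 has 1 probe set with its symbol alone, so no other probe set on the array can be set beside it.

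**Figure D2:**
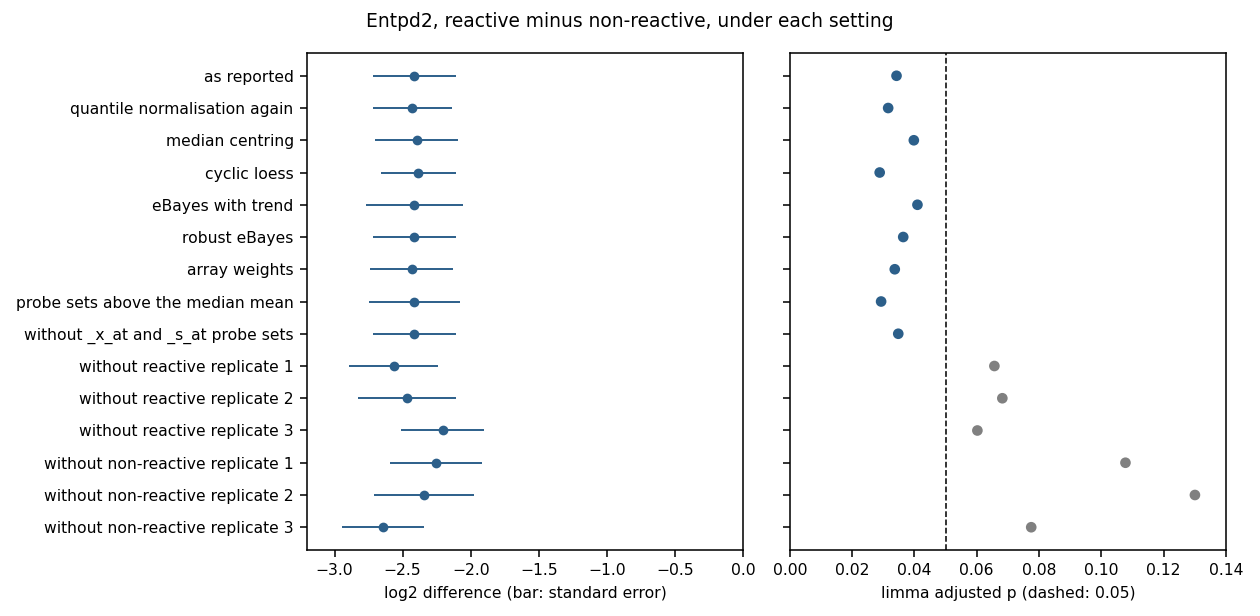
Entpd2 as reported and under the alternatives (rows, without the replicate block and the fit on gene means), with the log2 difference of reactive minus non-reactive and its standard error at the left, and the limma adjusted p at the right with the 0.05 threshold dashed. The difference stays between -2.64 and -2.21, while the adjusted p lies between 0.0289 and 0.0410 in the 8 other scalings, fits and filters and above the threshold in all 6 fits that leave out an array.

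Cell type marker lists and control probe sets differed between the groups too. The 12 astrocyte markers had a summed level, taken as the sum of 2 to the power of each log2 value, of 22857 to 25490 on reactive arrays and of 43636 to 52462 on non-reactive ones. Of these, 5 fell and 1, Gfap, rose (limma adjusted p under 0.05), beside 0.951% of all genes called in either direction. In all, 11 of the 12 differences lay below 0, and 10 were lower at an unadjusted limma p under 0.05. Of all genes, 15% reached that p in either direction. The 16 microglia and macrophage markers summed to 24604 to 39276 on reactive arrays and to 9736 to 10311 on non-reactive ones. The 3′ minus 5′ difference of the Gapdh control probe sets, a sign of RNA and labelling quality, was 3.85 to 4.64 on reactive arrays and 4.77 to 5.74 on non-reactive ones. For Pcx it was 1.15 to 1.66 against 3.42 to 3.50, and for 18S rRNA 0.60 to 1.12 against -1.55 to -0.92. The part of these shifts in the Entpd2 difference was not tested.

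The genes whose values over the 6 arrays were most like those of Entpd2, by the root mean square difference after each gene was centred on its own mean, were found among all 18193 genes. The closest was Mfge8, a secreted protein that bridges phagocytes to dying cells, at 0.19 log2 units. Its means were 9.98 ± 0.42 on reactive and 12.11 ± 0.29 on non-reactive arrays. Next were Phxr4 at 0.21 and Plpp3, a lipid phosphate phosphatase of the cell surface, at 0.22. Plpp3 averaged 10.03 ± 0.39 and 12.58 ± 0.41, and Phxr4 4.74 ± 0.11 and 7.13 ± 0.49, in reactive and non-reactive arrays (SD, n = 3). These genes were picked for this likeness, so their own difference is a description.

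Adk was read by 6 probe sets, which did not move alike. The brightest, 1438292_x_at, measured 10.55, 10.22 and 10.20 on non-reactive arrays and 9.04, 8.74 and 9.56 on reactive arrays. The groups did not overlap, and reactive replicate 3 came closest to the non-reactive arrays. Its log2 difference was -1.22 (SE 0.27, 95% interval -1.86 to -0.57), which did not pass (limma adjusted p = 0.119). The suffix _x_at means that some of its probes may also match other transcripts. The next, 1416319_at, overlapped between groups, with 6.37, 5.38 and 7.01 on reactive and 7.26, 5.86 and 5.84 on non-reactive arrays, and differed by -0.064 (95% interval -1.37 to 1.24). The other 4 had means under 4.74, the median over the means of all probe sets, and differed by -0.84 to 0.043. Of these, 1446068_at did not overlap between groups, with 2.84 to 3.50 on reactive and 3.71 to 4.57 on non-reactive arrays (limma adjusted p = 0.32). Averaged over its 6 probe sets Adk differed by -0.40 (limma adjusted p = 0.488). Which probe set reads which form of Adk was not determined.

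Entpd1, also called CD39, removes phosphates from ATP and ADP and is known from microglia and blood vessels. Its brightest probe set, 1423326_at, measured 5.67, 5.29 and 6.85 on reactive and 4.86, 4.92 and 5.09 on non-reactive arrays. The groups did not overlap, and reactive replicate 3 stood highest. The log2 difference was 0.98 (SE 0.41, 95% interval 0.012 to 1.95) and did not pass (limma adjusted p = 0.373). Without reactive replicate 3 it was 0.53. The other Entpd1 probe sets, 1450939_at and 1453586_at, overlapped between groups and differed by -0.11 and -0.18. The Entpd1 mean over 3 probe sets differed by 0.23 (limma adjusted p = 0.707).

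**Figure D3:**
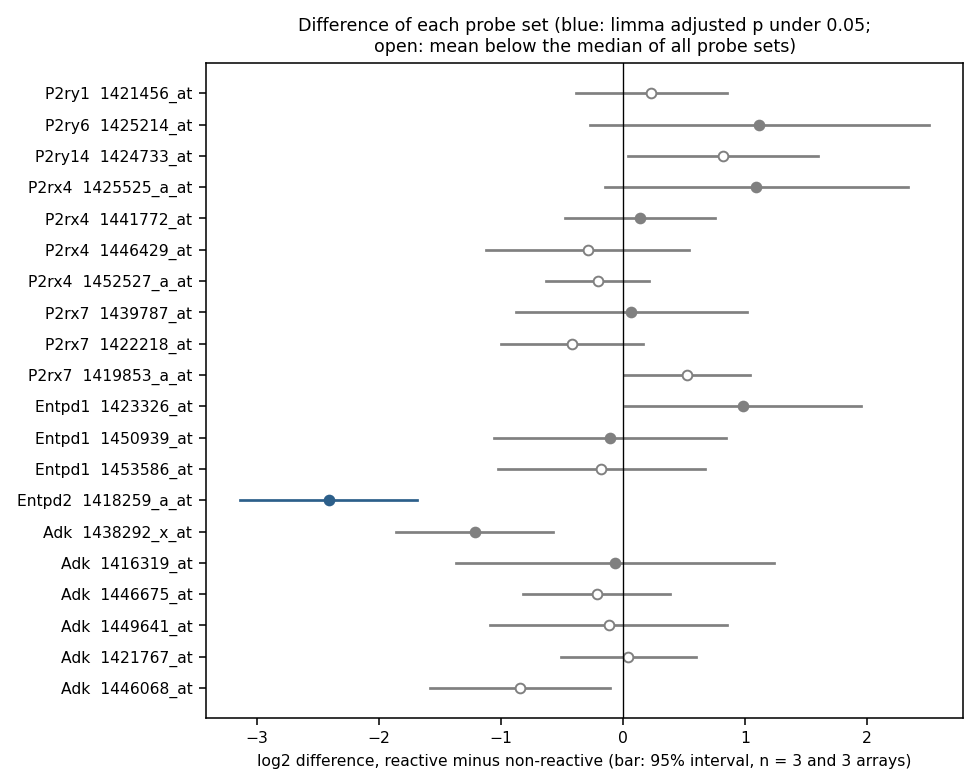
Log2 difference of reactive minus non-reactive arrays (horizontal axis) for each of the 20 member probe sets (rows), with its 95% interval from limma over 3 and 3 arrays. Only Entpd2, in blue at -2.41, passed, and the probe sets of Adk run from -1.22 to 0.043.

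Among the receptors, P2ry6 binds UDP and is known for triggering phagocytosis in microglia. It measured 5.77, 5.73 and 7.84 on reactive arrays and 5.05, 5.30 and 5.63 on non-reactive arrays. Every reactive array was above every non-reactive array, but replicates 1 and 2 by little, and reactive replicate 3 stood far above the rest. The log2 difference was 1.12 (SE 0.58, 95% interval -0.27 to 2.50; limma adjusted p = 0.467), and without reactive replicate 3 it was 0.42. The same array had the highest summed level of microglia and macrophage markers, 39276 against 24604 and 28803 in the other reactive arrays, and of endothelial and mural markers, 1459 against 323 and 459. Its sums of astrocyte, blood leukocyte and oligodendrocyte markers were also the highest of the reactive arrays, and its oligodendrocyte progenitor and neuron sums were the lowest. The astrocyte sum leans on Gfap, which was highest on this array at 12.98. By the mean log2 value of the astrocyte markers, reactive replicate 3 was the lowest, at 9.477 against 9.6945 and 9.615 in reactive replicates 1 and 2. The part of these in the P2ry6 value was not tested.

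P2rx4, an ATP-gated channel of microglia and other cells, was read by 4 probe sets. The brightest, 1425525_a_at, measured 8.11, 6.60 and 8.61 on reactive and 6.74, 6.33 and 6.97 on non-reactive arrays. Reactive replicates 1 and 3 were above all non-reactive arrays, and replicate 2 lay among them. The log2 difference was 1.09 (SE 0.52, 95% interval -0.15 to 2.33; limma adjusted p = 0.429). Leaving out reactive replicate 2 raised it to 1.68, with a limma adjusted p of 0.0937, and leaving out reactive replicate 3 lowered it to 0.67. Reactive replicate 2 also had the lowest microglia and macrophage, blood leukocyte and astrocyte sums of the reactive arrays. It had the highest oligodendrocyte progenitor and neuron sums of them. Its Gfap value, 11.71, was their lowest. By the mean log2 value of the astrocyte markers it was not the lowest, at 9.615 against 9.477 in reactive replicate 3. The microglial ADP receptor P2ry12 was at its highest on reactive replicate 2, at 8.03. The part of these in the P2rx4 value was not tested. The other 3 probe sets of P2rx4 differed by -0.29 to 0.14, and 1452527_a_at did not overlap between groups at 3.39 to 3.50 on reactive and 3.60 to 3.68 on non-reactive arrays. With the mean of the 4 probe sets P2rx4 differed by 0.18 (limma adjusted p = 0.752).

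P2rx7, an ATP-gated channel that needs high ATP and is known for starting inflammasome signalling, had 3 probe sets with no common direction. The brightest, 1439787_at, measured 5.01, 6.13 and 5.65 on reactive and 5.30, 5.11 and 6.17 on non-reactive arrays, so the groups overlapped. It differed by 0.067 (95% interval -0.88 to 1.01; limma adjusted p = 0.955). The probe set 1422218_at differed by -0.42 and 1419853_a_at by 0.52. The groups of 1419853_a_at did not overlap, and its mean of 2.88 was below 4.74.

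P2ry14, a receptor for UDP-glucose, measured 2.90, 4.05 and 3.11 on reactive and 2.48, 2.61 and 2.51 on non-reactive arrays. All its values lay below 4.74, and reactive replicate 2 was the highest. The log2 difference was 0.82 (SE 0.33, 95% interval 0.041 to 1.60; limma adjusted p = 0.357), and 0.47 without reactive replicate 2. P2ry1, an ADP receptor linked to calcium signals in astrocytes, measured 3.50, 4.11 and 4.30 on reactive and 3.71, 3.83 and 3.68 on non-reactive arrays. These values also lay below 4.74 and overlapped, and the difference was 0.23 (95% interval -0.39 to 0.85; limma adjusted p = 0.725). A p above the threshold does not show that their levels are alike.

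The other genes of the pathway were taken from 6 lists of 54 genes, chosen by function, of which 46 had a probe set of their own. Each gene was read at its brightest probe set. None of the 46 was called (limma, 0 higher and 0 lower), against 0.951% of 18193 genes. At an unadjusted limma p under 0.05 there were 5, 4 higher and 1 lower, or 10.9% against 15% of all genes. The groups did not overlap for 8, or 17.4% against 21.7% of all genes. The median log2 difference was 0.20, beside 0.12 for all genes. Of the 46 differences 28 lay above 0 and 18 below, beside 11037 and 7156 of all 18193 genes. Adora2a, Entpd4, Enpp1 and Enpp2 were among the genes not analysed here.

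**Figure D4:**
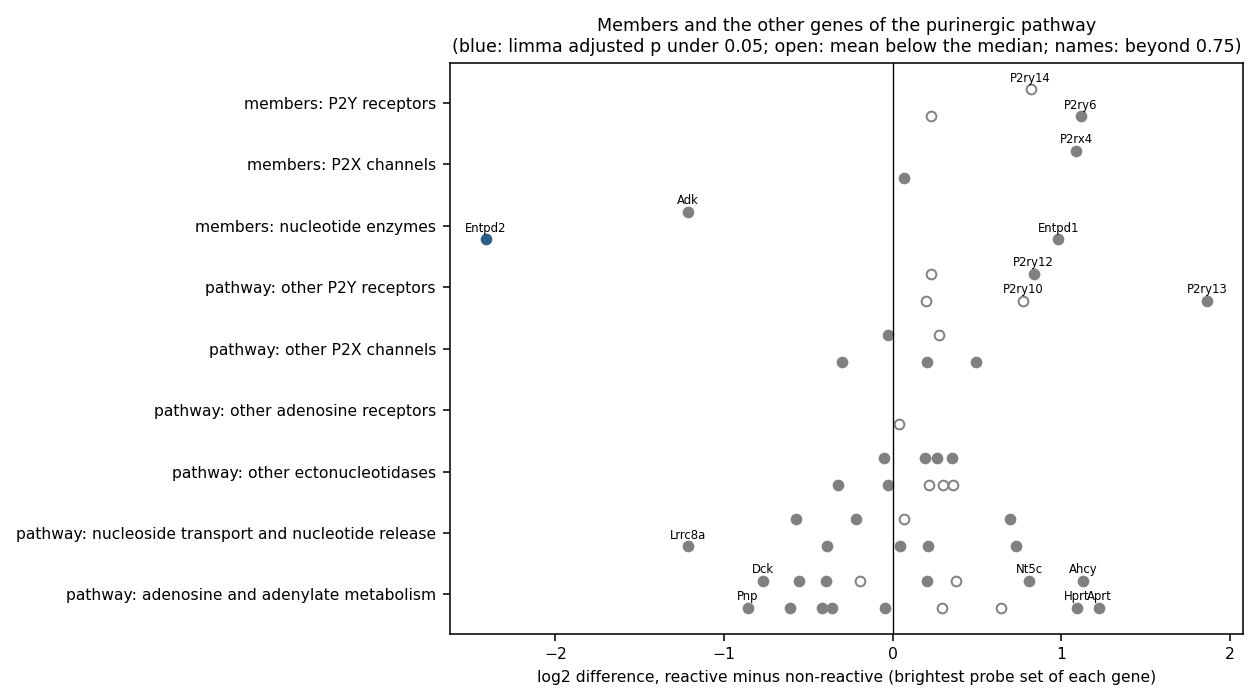
Log2 difference of reactive minus non-reactive arrays (horizontal axis) at the brightest probe set of each member and of each of the 46 other pathway genes, grouped by function (rows), with open symbols for means below the median of 4.74. Entpd2 at -2.41 is the only called gene, and P2ry13 at 1.86 lies highest.

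All 5 other P2Y receptors had differences above 0, and none passed. Of these, P2ry2, P2ry4 and P2ry10 averaged below 4.74 in both groups. P2ry13, an ADP receptor of microglia, measured 7.59, 8.12 and 9.27 on reactive and 7.11, 6.41 and 5.86 on non-reactive arrays. These groups did not overlap, and the difference was 1.86 (SE 0.51, 95% interval 0.66 to 3.07; limma adjusted p = 0.189). P2ry12, the ADP receptor that marks resting microglia, measured 5.37, 8.03 and 4.45 on reactive and 5.40, 5.21 and 4.73 on non-reactive arrays. Reactive replicate 2 alone stood high, and the groups overlapped (difference 0.84, SE 0.86, limma adjusted p = 0.70). Of the 5 other P2X channels 3 differences lay above 0 and 2 below, from -0.30 for P2rx1 to 0.49 for P2rx5, which was named after its values were seen (SE 0.24, limma adjusted p = 0.438). P2rx6, the brightest, differed by 0.20. The adenosine receptor Adora3 read below 4.74 in both groups and differed by 0.035.

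Of the 9 other genes measured from the list of ectonucleotidases and related enzymes, 6 differences lay above 0 and 3 below. Not all of these enzymes act at the cell surface. The brightest, Entpd5 and Entpd6, differed by -0.32 (SE 0.22) and 0.27 (SE 0.22). Nt5e, the ecto-5′-nucleotidase that makes adenosine, was chosen after its values were seen and averaged 6.04 ± 0.52 on reactive and 6.07 ± 0.11 on non-reactive arrays (difference -0.029, 95% interval -0.73 to 0.68, limma adjusted p = 0.975). Among genes of nucleoside transport and nucleotide release, Lrrc8a, a subunit of the volume-regulated anion channel, differed by -1.21 (SE 0.39, limma adjusted p = 0.264), and its groups did not overlap. Slc29a4, a plasma membrane transporter, differed by 0.21 (SE 0.31). In adenosine and adenylate metabolism Aprt, which salvages adenine, differed by 1.23 (SE 0.52, limma adjusted p = 0.386), and Ampd2, an AMP deaminase, by -0.36 (SE 0.35). Nt5c, Ahcy and Xdh were chosen after their values were seen, for an unadjusted limma p under 0.05. They differed by 0.81, 1.13 and 0.64, and none of them passed over all probe sets. The groups overlapped for Ahcy, and Xdh averaged below 4.74 in both groups.

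The sorted cells were checked against marker lists. Of all genes, 0.951% were called by limma in either direction and 15% had an unadjusted limma p under 0.05. The groups did not overlap for 21.7% of all genes. Over all 18193 genes, 11037 differences lay above 0 and 7156 below. The 12 astrocyte markers were all measured, none lay below 4.74 in both groups, and reactive and non-reactive values were apart for all 12. The brightest were Aldoc, at 12.67 ± 0.22 on reactive and 13.77 ± 0.47 on non-reactive arrays, and the gap junction gene Gja1, which fell by 1.38. Gfap rose by 3.12 (limma adjusted p = 0.0492) and Aldh1l1 differed by -0.57 (limma adjusted p = 0.366). Of 16 microglia and macrophage markers 6 rose and 0 fell, and only Itgam lay below 4.74 in both groups. Their brightest genes, Csf1r and Ctss, differed by 0.42 and 1.52 without passing. All 16 differences lay above 0, but Cx3cr1 and Siglech, named after their values were seen, differed by only 0.037 and 0.15. The summed level of the microglia and macrophage list therefore does not describe all its markers alike. Of 10 blood leukocyte markers 3 rose, Lyz2 by 5.67, Cd52 by 3.52 and Plac8 by 3.31, with S100a9 and Nkg7 below 4.74 in both groups. In this list 8 differences lay above 0 and 2 below. Ccr2, Cd3e, Cd3d and Cd79a, named after their values were seen, differed by only -0.029, 0.15, 0.032 and -0.080. The summed level was 2559 to 5188 on reactive arrays and 278 to 448 on the others, so it does not describe all leukocyte markers alike. Of 11 oligodendrocyte markers 1, Ermn, rose, and 10 differences lay above 0 with a median of 1.497. At an unadjusted limma p under 0.05, 7 were higher and 1 lower, and the groups did not overlap for 7. The brightest were Mbp, the only one below 0 at -0.49, and Cnp at 1.04. The sums of this list overlapped. The progenitor, neuron, and endothelial and mural lists held 5, 12 and 11 measured genes and 0 calls (limma), with 1, 1 and 2 at an unadjusted p under 0.05. All 5 progenitor differences lay above 0, with the brightest, Pdgfra and Gpr17, at 0.67 and 1.73. Of the neuron differences 9 lay below 0 and 3 above, with Camk2a and Rbfox3 at -0.44 and -0.30. Of the endothelial and mural differences 7 lay above 0 and 4 below, with a median of 0.32, while the brightest, Pdgfrb and Rgs5, were among the lower ones at -2.24 and -0.98.

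**Figure D5:**
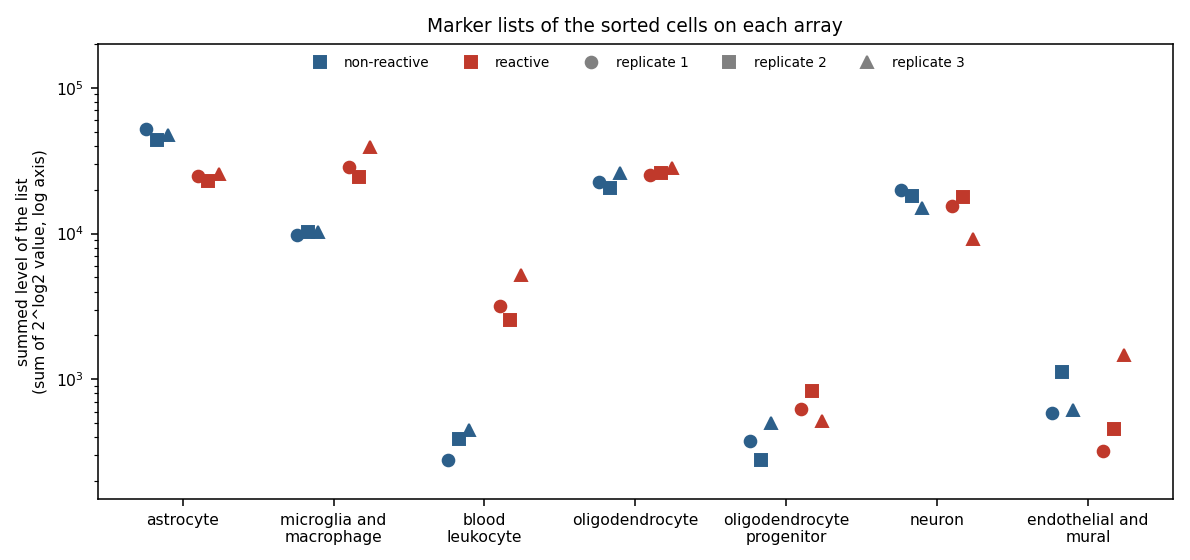
Summed level of each marker list (sum of 2 to the power of the log2 values, logarithmic vertical axis) on each of 6 arrays, non-reactive in blue and reactive in red, with the replicate as the symbol. The astrocyte sum is lower on all reactive arrays (22857 to 25490 against 43636 to 52462), and the microglia and macrophage sum is higher (24604 to 39276 against 9736 to 10311).

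Reactive replicate 3 had the highest microglia and macrophage, blood leukocyte, oligodendrocyte, and endothelial and mural sums of the 6 arrays. It had the lowest neuron sum. The brightest probe sets of P2ry1, P2ry6, P2rx4 and Entpd1 were at their highest of the 6 on the same array. This was seen after the values were known, and its part in the differences of these genes was not tested.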

How the data were processed

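The deposited values are log2 expression values that the authors made with RMA, robust multi-array averaging, which the submitters' processing notes name. Its version, and which arrays were normalised in one run, is not given in the sources used here. The method usually equalises the distributions of arrays, which hides changes in total RNA per cell, and the 6 array medians were 4.65 to 4.73. RNA was amplified in 2 rounds, per the labels' protocols. Of 45101 probe sets, 64 controls were left out of the tests. The difference, reactive minus non-reactive, came from limma 3.58.1 (lmFit, eBayes; R 4.3.3) with group as the only term and 6 arrays. Two-sided p-values were adjusted by Benjamini-Hochberg over 45037 probe sets, and the fit was tested on simulated data. A gene in a list was read at its brightest probe set. The members and lists were chosen with earlier results of these data known. The labels call the arrays biological replicates made from pools, so p-values measure the spread between pools, and 3 arrays a group limit the precision.

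Named are all member probe sets; pathway genes past the threshold and the 2 brightest per list; the 2 brightest markers per list, Gfap and Aldh1l1; and the 3 genes most like each called member. Alternatives were median centring, cyclic loess, quantile normalisation, eBayes with trend or robust, array weights, removal of dim or of _x_at and _s_at probe sets, averaging over the probe sets of a gene, a replicate block, and each array left out. Promoter sequences are from RefSeq, assembly GRCm38.p6, which held windows for 9 of the 10 genes.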

Additional observations from a re-analysis of the deposited data

How the results depend on the processing

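Fitted by probe set, Entpd2 kept its call in 8 of 15 alternatives, with a limma adjusted p from 0.0289 to 0.130, and its direction in all 15. It also kept both in the fit on gene means, with a limma adjusted p of 0.0235. Nothing in the labels pairs the same-numbered arrays of the groups. Their deviations from the group means correlated at -0.073, -0.11 and 0.037, which cannot decide whether they were paired. With the replicate block limma called 1 probe set instead of 383 and 0 members instead of 1, with an adjusted p of 0.105 for Entpd2. Leaving out 1 array left 1 to 173 called probe sets and 0 called members in each of the 6 fits. No alternative called any of the 46 pathway genes.

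Of the 19 other member probe sets none was called under any alternative run. The sign of 9 of them changed in at least 1 setting. The 1416319_at probe set of Adk was at 0.053 after another quantile normalisation, and 1421767_at at -0.058 with cyclic loess and -0.0080 with array weights. Without 1 array, the differences ran from -0.078 to 0.32 and from -0.56 to 0.064 for P2rx4 (1441772_at, 1446429_at) and from -0.20 to 0.39 for P2rx7 (1439787_at). For Entpd1 they ran from -0.39 to 0.25 and from -0.43 to 0.18 (1450939_at, 1453586_at). For Adk they ran from -0.44 to 0.41, from -0.33 to 0.0052, from -0.52 to 0.12 and from -0.042 to 0.19 (1416319_at, 1446675_at, 1449641_at, 1421767_at). In each case the cause was not tested. No detection call was used here, and 11 of the 20 probe sets, P2ry1 and P2ry14 included, had means below 4.74, the median over all probe sets, which limits what their differences show.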
